A study of Mus musculus with 23 samples.

Results

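The colony-stimulating factors and their receptors were followed across sciatic nerves (SNs) of adult mice, after a crush injury and after the loss of miRNA biogenesis in Schwann cells (SCs). The set was chosen as 7 listed gene symbols: the ligands Csf1, Il34, Csf2 and Csf3, the receptor Csf1r, and the receptor chains Csf2ra and Csf2rb. They are 7 of the 43068 genes in the crush files and 7 of the 22880 genes in the files of the inducible mutants. Each symbol was matched to 1 gene identifier of the GRCm38 annotation, and the counts of its transcripts were summed.

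CSF1 and IL-34 are secreted or cell-surface cytokines that both bind the receptor tyrosine kinase CSF1R, on which the survival and proliferation of most tissue macrophages depend. CSF2 (GM-CSF) binds a receptor made of its own alpha chain, encoded by Csf2ra, and a beta chain, encoded by Csf2rb, that is shared with the receptors for IL-3 and IL-5. CSF3 (G-CSF) acts through CSF3R and drives the production of neutrophils. In a peripheral nerve, macrophages reside in the endoneurium and epineurium, and more of them enter after injury and take up myelin debris.

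RNA sequencing covered 23 libraries in 7 groups. The crush experiment used wild-type C57bl6 mice: the crushed SN (n = 4) and the contralateral SN (n = 4) were taken 3 days post crush, and uncrushed nerves (n = 3) came from surgery controls. The mutants were Dicer iKO (P0-CreERT2 -/+ with Dicer1 flox/flox) and Dgcr8 iKO (P0-CreERT2 -/+ with Dgcr8 flox/flox), each with controls of the same floxed genotype without Cre (P0-CreERT2 -/-), all C57bl6 and taken 3 months post tamoxifen (n = 3 in each of 4 groups). Mutant and control animals both received tamoxifen. The Cre is driven by regulatory sequences of the myelin genes P0 and Cx32, so deletion was aimed at myelinating SCs and not at macrophages or fibroblasts, and the study chose mutant nerves with affected morphology. Whole nerve was sequenced, so fewer cells of a type and less RNA per cell cannot be told apart.

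Library totals were 6617716 to 12806066 estimated counts in the crush experiment and 5594859 to 10143244 in the iKO experiment. A count of 3 in a library, the limit that a count of 0 allows, corresponded to 0.234 to 0.536 CPM (counts scaled to the library total), and this limit covers counting error only. Levels are CPM scaled by TMM within each experiment, and the labels name different library kits for the 2 experiments, so levels were not ordered between them. In the crush comparisons, ratios of mean CPM ran above the fitted fold changes by a median of 0.12 (crushed against uncrushed) and 0.14 (crushed against contralateral) on the log2 scale over all genes tested. The CPM were scaled over all genes and libraries of an experiment, and the fits over the genes passing the filter in the libraries compared. The gene total of Dicer1 was 88.0 to 91.0 CPM in Dicer controls and 81.0 to 82.8 CPM in Dicer iKO. The total of Dgcr8 was 34.8 to 41.9 CPM in Dgcr8 controls and 39.3 to 53.7 CPM in Dgcr8 iKO. Gene totals do not resolve the floxed exons, so they do not check the deletion. At 3 months post tamoxifen, the study itself reports lower mRNA of the deleted gene in each mutant and lower let-7f in both. By the methods of the study each group had as many mice as libraries, so p-values measure the spread between mice. Whether the crushed and contralateral nerves came from the same mice is not in the labels. The methods describe a crush on a single side, with the contralateral nerve harvested as well, so these groups may well share mice. They were fitted without pairing, so the p-values of that comparison take their libraries as independent.

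Csf1 was called in 1 mutant line, and receptor genes were called after crush and in both mutant lines. In Dgcr8 iKO, 4 genes rose, Csf1, Csf1r, Csf2ra and Csf2rb, by 1.53 to 1.98 on the log2 scale. In Dicer iKO, Csf2ra and Csf2rb rose, whereas Csf1 was 0.82 higher, short of the 2-fold limit. After crush, the receptor genes Csf1r and Csf2rb rose against both control groups, with Csf2rb up by 3.00 against uncrushed nerves, while Csf1 was 0.33 higher and not called. Il34 was called in no comparison, Csf2 and Csf3 were at 0 to 3 counts in every library, and no member was called lower. A gene was called when edgeR's quasi-likelihood test gave an adjusted p of at most 0.05 and the fold change was at least 2.

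**Figure D1:**
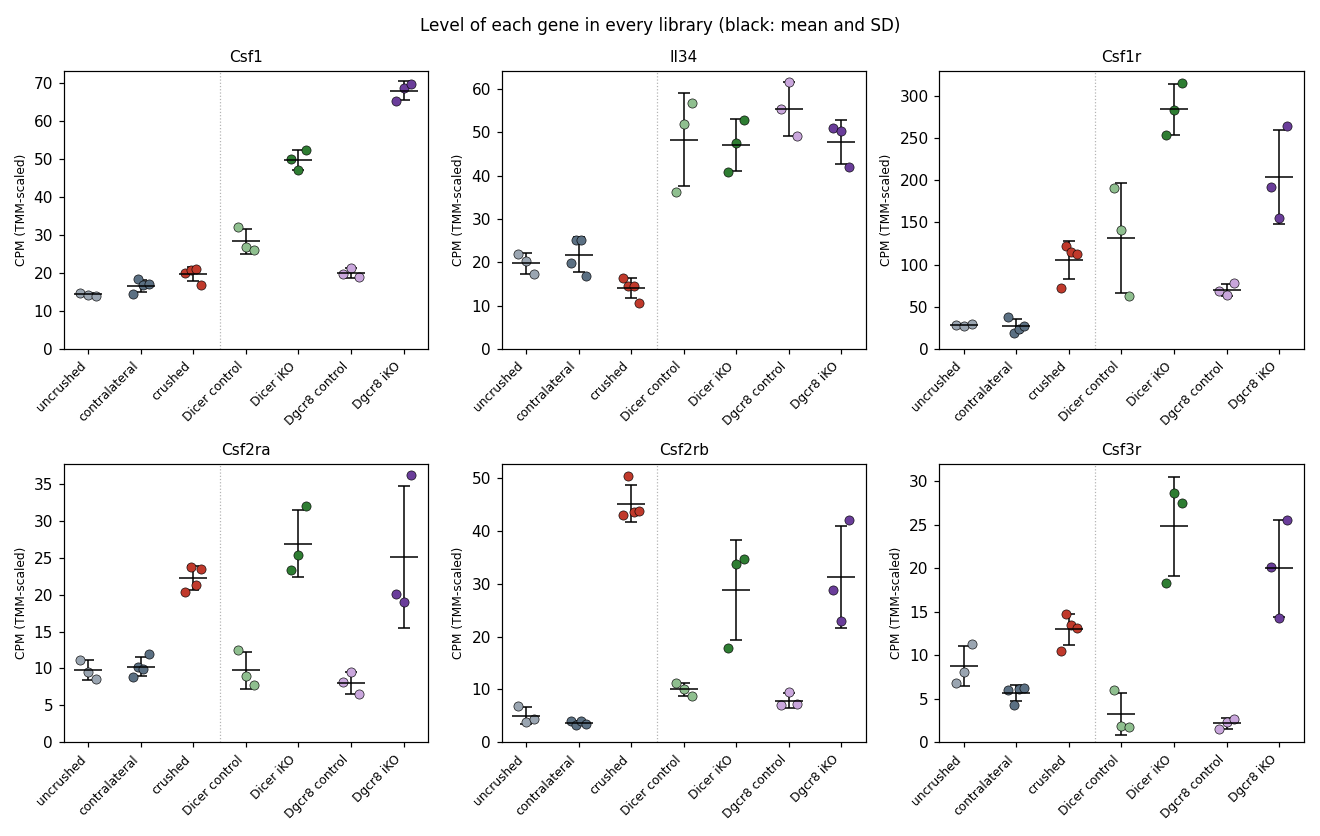
Each panel plots the TMM-scaled CPM of 1 gene (vertical axis, from 0) in every library of the 7 groups; points are libraries, black bars are the mean and SD, and the dotted line parts the crush experiment from the iKO experiment. In the iKO experiment Csf1 is highest in Dgcr8 iKO, at 65.1 to 69.8 CPM, and in the crush experiment Csf2rb is highest in crushed nerves, at 43.1 to 50.4 CPM.

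The share of all genes called sets the scale for these counts. Against uncrushed nerves, 15.3% of genes tested rose in crushed nerves and 21.1% fell, and 3 of the 5 members tested rose. Against contralateral nerves, 14.6% rose and 13.6% fell, and 2 of the 5 rose. In Dicer iKO, 7.37% rose and 1.64% fell, with 2 of the 5 members up. In Dgcr8 iKO, 13.4% rose and 6.99% fell, with 4 of the 5 up. Between contralateral and uncrushed nerves edgeR called 0% of 17722 genes, with 3165 at an unadjusted p under 0.05, against 0 genes by DESeq2 and 163 by edgeR's exact test. The 2 members that were not tested are Csf2 and Csf3, which passed the filter on low counts in none of the comparisons.

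**Figure D2:**
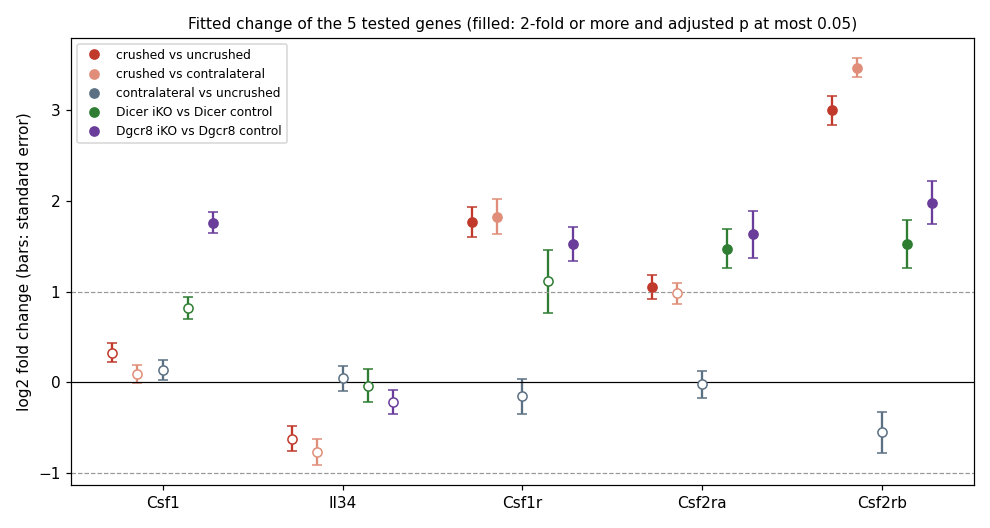
The plot shows the fitted log2 fold change (vertical axis) of the 5 tested genes in 5 comparisons, with bars for the standard error and filled points where the fold was at least 2 and the adjusted p at most 0.05; dashed lines mark 2-fold. The 3 receptor genes lie above 0 in crushed nerves and in both mutants, Csf1 is filled only for Dgcr8 iKO, at 1.76, and Il34 is lowest for crushed against contralateral nerves, at -0.77.

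Csf1 (ENSMUSG00000014599, chr3:107741048-107760469 on the minus strand, GRCm38) encodes macrophage colony-stimulating factor. Its level in the 3 Dgcr8 control libraries was 19.7, 21.3 and 18.9 CPM, and in the 3 Dgcr8 iKO libraries 65.1, 68.7 and 69.8 CPM. In Dicer controls it was 32.01, 26.9 and 25.9 CPM, and in Dicer iKO 49.9, 47.1 and 52.3 CPM. Every mutant library lay above every control library of its line, and the Dgcr8 iKO libraries also lay above all Dicer iKO libraries. The mean was 19.96 ± 1.23 CPM in Dgcr8 controls and 67.8 ± 2.47 in Dgcr8 iKO, and 28.3 ± 3.27 in Dicer controls and 49.8 ± 2.62 in Dicer iKO (SD, n = 3 each). The log2 fold change fitted by edgeR was 1.76 (SE 0.119, adjusted p = 2.41e-06) in Dgcr8 iKO and 0.82 (SE 0.119, adjusted p = 0.00499) in Dicer iKO. Over both lines, mutants exceeded controls by 34.7 CPM on average, with p = 0.005 in a two-sided exact permutation test within lines, the smallest that its 400 permutations can give.

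The log2 fold change of Csf1 was estimated as higher in Dgcr8 iKO than in Dicer iKO by 0.94 on the log2 scale (SE 0.157, approximate 95% interval 0.64 to 1.251). With adjustment over all 13552 genes this difference did not pass the threshold (edgeR adjusted p = 0.0997). Csf1 had the fifth smallest p of these genes, and only 0.0148% of them, namely the 2 genes Per3 and Plvap, passed. The difference passed with DESeq2 (0.96, adjusted p = 0.000209), without the filter on low counts (0.95, adjusted p = 0.0403) and without the library Dicer control 3 (1.002, adjusted p = 0.00892). In the other 14 of 17 alternatives it was not called, with an edgeR adjusted p of up to 0.318. The lines also differed in their controls, since each Dicer control library held more Csf1 than each Dgcr8 control library.

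In the crush experiment Csf1 stayed short of 2-fold in every comparison. Uncrushed nerves had 14.8, 14.2 and 14.04 CPM, contralateral nerves 14.5, 18.3, 16.8 and 17.0 CPM, and crushed nerves 19.9, 20.8, 21.0 and 17.0 CPM. Crushed libraries did not overlap the uncrushed ones, but did overlap the contralateral ones. Against uncrushed nerves the log2 fold change was 0.33 (SE 0.105, edgeR adjusted p = 0.0152), short of 2-fold and not called. Its size moved with the handling of the counts. It was 0.23 (edgeR adjusted p = 0.0809) with all groups in one fit, 0.51 with DESeq2, 0.56 without the filter on low counts and 0.59 (edgeR adjusted p = 0.000885) when only protein-coding transcripts were summed. Against contralateral nerves it was 0.10 (SE 0.1001, adjusted p = 0.404), and contralateral against uncrushed nerves gave 0.14 (SE 0.107, adjusted p = 0.506). Of all genes tested, 64.0% had a lower log2 fold change than Csf1 in crushed against uncrushed nerves, compared with 93.0% in Dgcr8 iKO and 89.4% in Dicer iKO.

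The files split Csf1 over 7 annotated transcripts. The main pair, of 4176 and 3058 bases, have the same last exon, at chr3:107741048-107743145. They differ in exon 6, which is 1016 bases in the long transcript (chr3:107748154-107749169) and 131 bases in the short one, a difference of 885 bases, and in the start of exon 1. Full-length exon 6 encodes the region through which CSF1 is released as a secreted glycoprotein or proteoglycan, and the shortened exon gives a form that remains on the cell surface. The long transcript made up 47.2, 62.7 and 59.4% of the Csf1 count in Dgcr8 controls and 91.2, 84.4 and 85.2% in Dgcr8 iKO. In Dicer controls it made up 88.5, 88.1 and 95.8%, and in Dicer iKO 82.1, 79.1 and 62.7%. The share of the long transcript was thus higher in the mutant of one line and lower in the mutant of the other, with no overlap between mutant and control in either line. A retained-intron transcript took a mean of 26.4% of the Csf1 count in uncrushed, 15.3% in contralateral and 12.4% in crushed nerves. In the crush libraries the share of the long transcript ranged from 5.21% to 66.4% and overlapped between all groups. These splits are RSEM estimates from shared reads, and they were not tested. The main fits use gene totals, so the split enters only the fit on protein-coding transcripts.

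**Figure D3:**
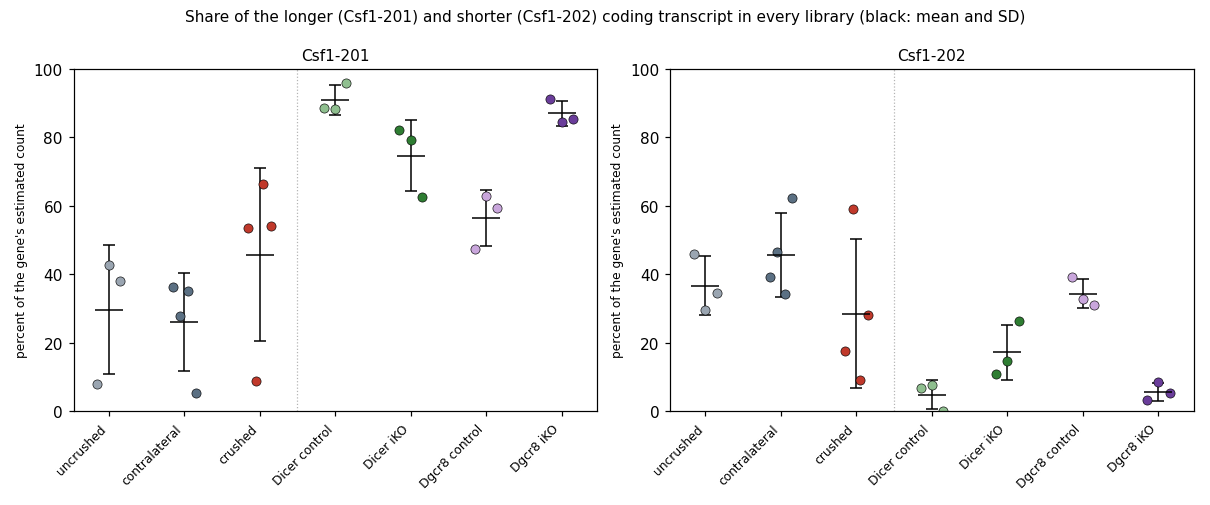
Each panel plots, for every library of the 7 groups, the percent of the Csf1 estimated count (vertical axis, 0 to 100) assigned to the long (left) or the short coding transcript (right); points are libraries and black bars the mean and SD. The long transcript averages 56.5% in Dgcr8 controls and 86.9% in Dgcr8 iKO, but 90.8% in Dicer controls and 74.6% in Dicer iKO.

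Since both deletions were aimed at genes of miRNA biogenesis in myelinating SCs, the 3′ UTR of Csf1 was searched for matches to miRNA seeds. The miRNAs searched were those that the study names as abundant in the SN, with miR-30a-5p and with miR-16-5p, another of its target predictions, 9 in all with 8 distinct seeds. The seed is bases 2 to 8 of the mature miRNA and pairs with the target. The mature sequences (RefSeq, GRCm38.p6) of the 4 with a match in Csf1 are shown with the seed in capitals.
mmu-miR-27b-3p: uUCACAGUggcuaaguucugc
mmu-miR-22-3p: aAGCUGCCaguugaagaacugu
mmu-miR-30a-5p: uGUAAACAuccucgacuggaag
mmu-miR-16-5p: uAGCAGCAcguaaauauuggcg

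The 3′ UTR of the long transcript (2114 bases, GENCODE M21, GRCm38), which ends in the shared last exon, held 5 matches on the transcript's strand. Each is given with the 7 matching letters in capitals and in the order of the transcript, which runs along the minus strand.
miR-22-3p, chr3:107742880-107742886: tgcattggaggaagGGCAGCTc
miR-27b-3p, chr3:107742362-107742368: aaggaagccattgcACTGTGAa
miR-30a-5p, chr3:107741715-107741721: aaaaaaaaaagggtTGTTTACt
miR-16-5p, chr3:107741609-107741615: ccttggtctctttaTGCTGCTg
miR-27b-3p, chr3:107741174-107741180: gcactgcctcacaaACTGTGAg

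Such matches are common in 3′ UTRs of this length. Of 3056 genes with a 3′ UTR of similar length, 24.2% held a miR-27b-3p match, 19.4% a miR-22-3p match, 21.5% a miR-30a-5p match and 30.4% a miR-16-5p match. The letters matching the other 4 seeds, those of miR-181a-5p, let-7f-5p, miR-26a-5p and the pair miR-10a-5p and miR-10b-5p, were not in this window. Il34, whose levels overlapped between mutants and controls, held no match in its 608 bases, and Csf2ra, which rose in both mutants, none in its 605 bases. Csf2rb held 1 match, to miR-30a-5p, Csf1r 1 each to miR-22-3p and miR-16-5p, Csf2 1 and Csf3 2 to miR-16-5p. The window searched was the longest annotated 3′ UTR of each gene. For Il34 and Csf1r it belongs to a minor transcript, at a mean of 6.14% and 2.06% of the gene's count in Dgcr8 iKO. For Csf2rb it belongs to a transcript that was not quantified. The results for these genes may therefore not apply to the transcripts measured. A match is a run of letters, and binding was not measured in these files.

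By likeness over the 23 libraries, the genes closest to Csf1 included matrix and signalling genes. The measure was Pearson's r of log2(CPM + 1), centred within each experiment, over the 10070 protein-coding genes with a mean of at least 5 CPM in both. The 5 closest were Nid1 (r = 0.957), which encodes the basement membrane protein nidogen, the DNA methyltransferase gene Dnmt3a (r = 0.954), the tyrosine kinase gene Src (r = 0.937), Egflam (r = 0.936), which encodes the matrix protein pikachurin, and the collagen gene Col28a1 (r = 0.934). All share the same libraries and the same mutant and control groups, so r describes the pattern only. Their log2 fold changes were 1.54 for Nid1 to 2.72 for Col28a1 in Dgcr8 iKO and 0.82 to 1.90 in Dicer iKO, and for none of them was the difference between the lines called.

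Il34 (ENSMUSG00000031750, chr8:110741829-110805924, minus strand) encodes the other ligand of CSF1R. Uncrushed nerves had 21.96, 20.2 and 17.3 CPM, contralateral nerves 19.9, 25.0, 25.1 and 16.8 CPM, and crushed nerves 16.4, 14.5, 14.6 and 10.7 CPM. Every crushed library lay below every control library, by a narrow margin. With edgeR the log2 fold change was -0.62 (SE 0.138, adjusted p = 0.00174) against uncrushed and -0.77 (SE 0.144, adjusted p = 0.000302) against contralateral nerves, lower but short of 2-fold in both. Against uncrushed nerves it was -0.40 without the filter on low counts (edgeR adjusted p = 0.0352) and -0.45 with DESeq2 (adjusted p = 0.0505). In the iKO experiment the levels overlapped: 36.2, 52.0 and 56.8 CPM in Dicer controls against 40.8, 47.5 and 52.8 CPM in Dicer iKO, and 55.4, 61.7 and 49.1 CPM in Dgcr8 controls against 50.9, 50.4 and 41.9 CPM in Dgcr8 iKO. The log2 fold changes in edgeR were -0.04 (SE 0.179, adjusted p = 0.902) and -0.22 (SE 0.134, adjusted p = 0.214), and they differed by -0.18 (approximate 95% interval -0.63 to 0.27).

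The balance of the 2 ligands of CSF1R therefore differed between groups. Per length, as FPKM, Csf1 made up 22.3 to 24.6% of the sum of Csf1 and Il34 in uncrushed nerves, 21.3 to 30.1% in contralateral nerves and 33.0 to 44.96% in crushed nerves. In Dgcr8 controls it made up 14.3 to 17.8% and in Dgcr8 iKO 36.2 to 42.6%, and in Dicer controls 16.0 to 28.4% and in Dicer iKO 30.5 to 35.5%. Injured and mutant libraries lay above their controls without overlap in each case. In crushed nerves Il34 FPKM was lower, at 11.7 ± 1.74 (SD, n = 4) against 18.4 ± 1.36 in uncrushed (n = 3) and 21.5 ± 4.55 in contralateral nerves (n = 4). Csf1 FPKM, at 6.95 ± 0.502 in crushed nerves, was higher than in uncrushed nerves (5.59 ± 0.797) and close to that in contralateral nerves (6.96 ± 0.965). In Dgcr8 iKO Csf1 was higher, at 20.5 ± 0.930 against 6.55 ± 0.217 FPKM (n = 3 each). Il34 remained the higher ligand per length in all 23 libraries. These shares are a description and carry no test. Gene FPKM sums all transcripts, including the retained-intron transcript of Csf1 and, in the crush files alone, short noncoding transcripts of Il34. The shortest of these, of 309 bases, had a mean count of 10.3 in uncrushed, 13.7 in contralateral and 5.01 in crushed nerves. Their part in the shares was not tested.

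**Figure D4:**
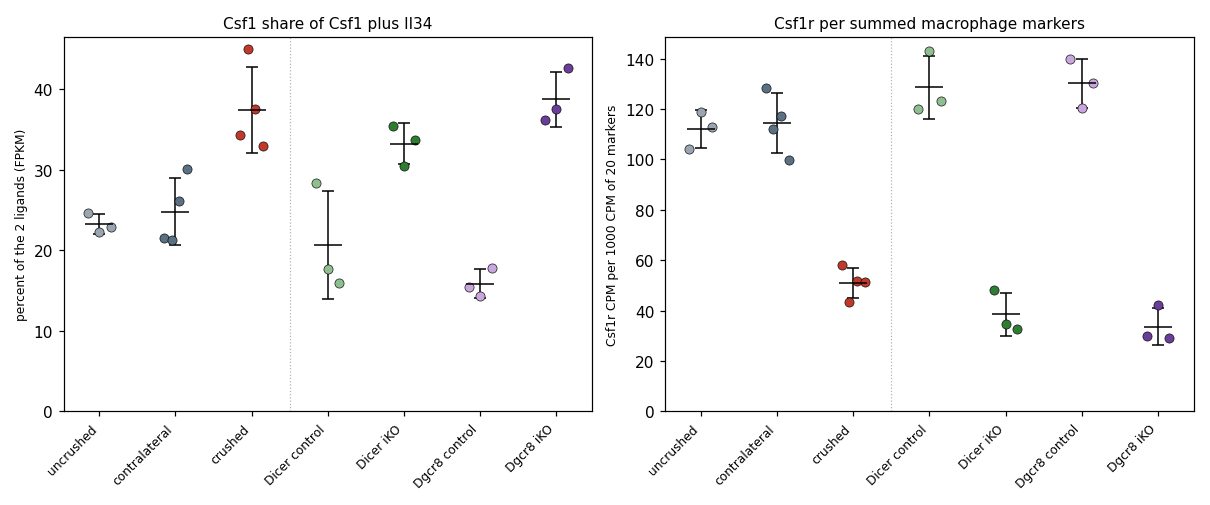
The left panel plots Csf1 FPKM as a percent of the summed FPKM of Csf1 and Il34, and the right panel the CPM of Csf1r per 1000 CPM of 20 macrophage markers, in every library of the 7 groups; points are libraries and black bars the mean and SD. The ligand share averages 37.5% in crushed nerves and 38.8% in Dgcr8 iKO, and the receptor ratio averages 130.2 in Dgcr8 controls and 33.6 in Dgcr8 iKO.

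Csf1r (ENSMUSG00000024621, plus strand of chromosome 18) encodes the receptor for both ligands. Uncrushed nerves had 28.5, 27.5 and 29.5 CPM, contralateral nerves 38.2, 18.9, 24.2 and 27.0 CPM, and crushed nerves 72.4, 121.7, 114.8 and 112.7 CPM. The crushed library with 72.4 CPM lay apart from the other 3, yet above all controls. Csf1r rose by 1.77 on the log2 scale against uncrushed nerves (SE 0.163, adjusted p = 1.49e-06) and by 1.83 against contralateral nerves (SE 0.189, adjusted p = 8.59e-07). Contralateral nerves did not differ detectably from uncrushed ones (-0.15, SE 0.193, edgeR adjusted p = 0.699).

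In the mutants Csf1r was 68.7, 64.2 and 78.3 CPM in Dgcr8 controls against 191.4, 155.2 and 263.9 CPM in Dgcr8 iKO, and rose by 1.53 on the log2 scale (SE 0.186, adjusted p = 8.53e-05). Dicer controls were spread over 190.8, 140.9 and 62.3 CPM, and Dicer iKO over 253.9, 283.4 and 314.8 CPM. Mutants lay above controls in both lines, but the wide Dicer controls left an adjusted p of 0.0568 for a log2 fold change of 1.12 (SE 0.348). It was called with DESeq2 (1.11, adjusted p = 0.00637), with all groups in one fit (1.11, adjusted p = 0.0180), with edgeR's exact test (1.12, adjusted p = 0.0126), without the filter on low counts (1.11, adjusted p = 0.0459) and without Dicer control 1, the highest control (1.49, adjusted p = 0.0149). It was not called without Dicer control 3, the lowest (0.78, edgeR adjusted p = 0.0130), and with another library left out the edgeR adjusted p reached 0.171, without Dicer iKO 3. The effects in the 2 lines differed by 0.41 (SE 0.426, approximate 95% interval -0.42 to 1.248, adjusted p = 0.704), and by 0.04 without Dicer control 1 and 0.75 without Dicer control 3.

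Csf1r moved with the macrophage markers, and by less than their median. Of 20 macrophage markers, 19 rose and 0 fell in crushed nerves against either control, 15 rose and 1, Lyve1, fell in Dicer iKO, and 16 rose and 1, Cd163, fell in Dgcr8 iKO. Their median log2 fold change was 2.54 against uncrushed and 2.97 against contralateral nerves, 2.41 in Dicer iKO and 3.21 in Dgcr8 iKO, beside medians of -0.03, -0.06, -0.01 and -0.01 over all genes tested. The largest changes were those of Mpeg1 (4.75 against uncrushed nerves), which encodes a pore-forming protein of phagocytes, of the chemokine receptor gene Ccr2 (4.64) and of the integrin gene Itgam (4.62) after crush, and of Ms4a7 (4.44 in Dicer iKO and 5.21 in Dgcr8 iKO) and the lipid receptor gene Trem2 (5.12 in Dgcr8 iKO) in the mutants. The summed markers ranged over 231 to 274 CPM in uncrushed, 168 to 298 CPM in contralateral and 1249 to 2816 CPM in crushed nerves, and no marker was at 0 throughout a group. They ranged over 506 to 1590 CPM in Dicer controls, 5274 to 9642 CPM in Dicer iKO, 492 to 601 CPM in Dgcr8 controls and 3694 to 9097 CPM in Dgcr8 iKO. The part of cell numbers in the change of Csf1r was not tested.

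Set against the summed markers, Csf1r was 104 to 119 CPM per 1000 marker CPM in uncrushed and 99.6 to 128 in contralateral nerves, and 43.2 to 57.9 in crushed nerves. It was 120 to 143 in Dicer controls and 32.6 to 48.1 in Dicer iKO, and 120 to 140 in Dgcr8 controls and 29.0 to 42.0 in Dgcr8 iKO. The ratio lay lower in every injured or mutant library than in every control library of its experiment. The lysozyme gene Lyz2 took a large share of the marker sum, a mean of 57.1% in Dicer iKO and 52.8% in Dgcr8 iKO against 30.5% and 25.3% in their controls, and 32.6% in crushed against 21.7% in uncrushed nerves. Without Lyz2 the ratio was 68.4 to 80.7 in crushed nerves against 129 to 169 in their controls, and 60.9 to 108 in the mutants against 162 to 199.8 in theirs, still without overlap. The Dicer control with the most Csf1r, at 190.8 CPM, was also the one with the most marker RNA, at 1590 CPM, and the one with the least Csf1r had the least, at 506 CPM.

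The 5 genes most like Csf1r by the same measure were Pik3cg (r = 0.984), the gene of a leukocyte PI3-kinase subunit, the Fc receptor gene Fcgr3 (r = 0.982), the protein kinase C gene Prkcb (r = 0.978), Spi1 (r = 0.977), which encodes the myeloid transcription factor PU.1, and Hacd4 (r = 0.977). Spi1 is also in the list of myeloid transcription factors and Fcgr3 in that of macrophage markers. None of the 5 genes is shared with those most like Csf1.

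Csf2ra (ENSMUSG00000059326, chr19:61223957-61228429, minus strand) encodes the ligand-specific chain of the CSF2 receptor. Uncrushed nerves had 11.2, 9.53 and 8.55 CPM, contralateral nerves 8.91, 10.2, 9.89 and 12.02 CPM, and crushed nerves 20.4, 23.8, 21.4 and 23.5 CPM. In the mutants it was 12.5, 8.96 and 7.74 CPM in Dicer controls, 23.3, 25.4 and 32.02 CPM in Dicer iKO, 8.24, 9.52 and 6.54 CPM in Dgcr8 controls and 20.1, 19.1 and 36.2 CPM in Dgcr8 iKO. The crushed libraries lay above all 7 controls of their experiment, and the mutant libraries above all 6 of theirs. Csf2ra rose by 1.05 on the log2 scale against uncrushed nerves (SE 0.130, adjusted p = 1.77e-05), by 1.47 in Dicer iKO (SE 0.215, adjusted p = 0.00504) and by 1.63 in Dgcr8 iKO (SE 0.263, adjusted p = 0.000507). Against contralateral nerves it was 0.98 higher (SE 0.114, adjusted p = 2.87e-06), just short of 2-fold. Calls on either side of this limit turned on the settings: against uncrushed nerves it was 0.95 with all groups in one fit and 0.99 without crushed 4, and against contralateral nerves 1.07 with DESeq2, 1.15 without the filter on low counts and 1.06 without contralateral 4.

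The promoter window of Csf2ra, 250 bases before to 50 bases after the RefSeq start (GRCm38.p6, chr19:61228369-61228668, minus strand), is shown. The gene rose against uncrushed nerves and in both mutants, and its likeness to the myeloid genes was not measured. Capitals mark the letters GAGGAA, the core of PU.1 sites, which was searched on both strands with TGANTCA, the AP-1 motif.
Csf2ra: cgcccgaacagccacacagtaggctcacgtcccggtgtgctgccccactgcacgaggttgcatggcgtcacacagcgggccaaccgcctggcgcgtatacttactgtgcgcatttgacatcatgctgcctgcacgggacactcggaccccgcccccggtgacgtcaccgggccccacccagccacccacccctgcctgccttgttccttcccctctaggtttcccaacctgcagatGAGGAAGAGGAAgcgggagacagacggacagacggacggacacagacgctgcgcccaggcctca
The window held GAGGAA at 14 and at 8 bases before the start, side by side, and no TGANTCA. Of 32851 promoter windows of this length, 28.3% held GAGGAA and 7.81% TGANTCA. The window of Csf1 (chr3:107760420-107760719) and that of Csf2 (chr11:54249850-54250149) held neither. The Csf2 window follows the RefSeq start and lies wholly upstream of the start annotated for the gene, at chr11:54249667. The bases next to that annotated start were therefore not searched. Binding was not measured in these files, and a match is only a description.

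Csf2rb (ENSMUSG00000071713, chr15:78325752-78353847, plus strand) encodes the beta chain common to the receptors for CSF2, IL-3 and IL-5, and had the largest change after crush among the members. Uncrushed nerves had 6.84, 3.88 and 4.43 CPM, contralateral nerves 4.04, 3.34, 4.01 and 3.45 CPM, and crushed nerves 43.1, 50.4, 43.5 and 43.9 CPM. It rose by 3.00 on the log2 scale against uncrushed (SE 0.165, adjusted p = 1.48e-08) and by 3.47 against contralateral nerves (SE 0.106, adjusted p = 2.53e-12). In the mutants it was 11.2, 10.03 and 8.83 CPM in Dicer controls against 17.9, 33.7 and 34.8 CPM in Dicer iKO, and 7.06, 9.52 and 7.17 CPM in Dgcr8 controls against 28.8, 23.1 and 42.0 CPM in Dgcr8 iKO. It rose by 1.52 (SE 0.264, adjusted p = 0.00873) in Dicer iKO and by 1.98 (SE 0.235, adjusted p = 7.06e-05) in Dgcr8 iKO. The 2 effects differed by 0.46 (SE 0.383, approximate 95% interval -0.29 to 1.21, adjusted p = 0.627), and those on Csf2ra by 0.16 (SE 0.375, interval -0.57 to 0.90, adjusted p = 0.878). Set against the macrophage markers, Csf2rb changed by 0.46 and 0.50 more than their median on the log2 scale after crush, and by 0.89 and 1.23 less in Dicer iKO and Dgcr8 iKO. With Csf2rb and its copy Csf2rb2 summed, the differences from the marker median after crush were 0.20 and -0.19. The part of the read split in this change was not tested.

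Its neighbour Csf2rb2 (ENSMUSG00000071714, chr15:78282507-78305721) is a near-identical copy that encodes the beta chain used by IL-3 alone in the mouse, so the split of reads between the pair is uncertain. Csf2rb2 rose by 2.36 and 2.05 after crush, against uncrushed and contralateral nerves, by 1.93 in Dicer iKO and by 2.0002 in Dgcr8 iKO. Csf2rb took 31.2 to 48.9% of the pair's counts in contralateral nerves, 47.1 to 55.8% in uncrushed nerves and 61.2 to 65.6% in crushed nerves, whereas in the iKO experiment its share overlapped between mutants and controls. With both genes summed, the log2 fold changes were 2.74 and 2.79 after crush, 1.67 in Dicer iKO and 1.99 in Dgcr8 iKO, all called.

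The ligands of these receptors were close to absent from the files at 3 days after crush and at 3 months post tamoxifen. Csf2 (ENSMUSG00000018916, chr11:54247271-54249667, minus strand) had at most 3 counts, in 1 contralateral library, and no count in 4 of the 11 crush libraries and 10 of the 12 iKO libraries. Csf3 (ENSMUSG00000038067, chr11:98701263-98703629, plus strand) had 1 count in 6 crush libraries and 0 counts in the other five and in all 12 iKO libraries. At this depth a level below 0.234 to 0.536 CPM could not be told from 0, so neither gene could be compared between groups. Il3, a further ligand of the shared chain, was at 0 in all 23 libraries, and Il5 at 0 to 3 counts.

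Csf3r, the receptor of CSF3 and a gene of neutrophils and monocytes, had the largest change among the relatives in the mutants. It was 6.03, 1.87 and 1.77 CPM in Dicer controls and 18.3, 28.7 and 27.4 CPM in Dicer iKO, and 1.53, 2.28 and 2.70 CPM in Dgcr8 controls and 20.1, 14.3 and 25.5 CPM in Dgcr8 iKO. It rose by 2.95 (SE 0.441, adjusted p = 0.00549) and 3.18 (SE 0.285, adjusted p = 1.22e-05). After crush it rose against contralateral nerves (1.06, SE 0.148, adjusted p = 1.78e-05) but was 0.48 higher (SE 0.183, adjusted p = 0.0364) against uncrushed nerves, whose 6.84, 8.12 and 11.3 CPM overlapped the 10.5, 14.8, 13.5 and 13.1 CPM of crushed nerves. Il3ra, the alpha chain of the IL-3 receptor, rose by 2.04 against uncrushed nerves, from a mean of 0.362 CPM, and by 1.51 and 1.78 in Dicer iKO and Dgcr8 iKO. Against contralateral nerves it was 0.94 higher (adjusted p = 0.0365). Il5ra had 5 to 11 counts in crushed libraries, 0 to 5 in the other crush libraries and 0 to 3 in the iKO libraries, and was not tested. The 10 neutrophil markers summed to 28.4 to 38.3 CPM in uncrushed, 20.1 to 28.6 CPM in contralateral and 32.02 to 41.9 CPM in crushed nerves. In the mutants they summed to 13.4 to 21.7 CPM in Dicer iKO and 12.1 to 16.5 CPM in Dgcr8 iKO, below the 24.2 to 35.9 CPM and 25.6 to 61.3 CPM of the controls, and Camp, Elane, Mpo and Ngp were at 0 in all mutant libraries. Of these, Camp was at 0 in all iKO controls too, Mpo in all Dicer controls, and Elane and Ngp in all Dgcr8 controls. The chemokine receptor gene Cxcr2 was the main part of these sums and fell in Dgcr8 iKO, to a mean of 8.17 CPM from 45.2 CPM, while Mmp8, a neutrophil collagenase gene, rose to 3.79 CPM from 0.173 CPM. In crushed nerves Retnlg rose to a mean of 15.5 CPM and Cxcr2 fell against uncrushed nerves. Of the 10 genes only 1 to 3 were tested in a comparison. In Dgcr8 iKO 3 were tested, and 2 rose while 1, Cxcr2, fell. The lower sum there therefore does not stand for the markers as a set. In Dicer iKO 1 was tested, at a log2 fold change of -0.84 without a call. The part of neutrophils in the change of Csf3r was not tested.

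Of 22 genes for signalling below these receptors, 10 rose and 1 fell against uncrushed nerves and 9 rose and 1 fell against contralateral nerves. In Dicer iKO 6 rose and in Dgcr8 iKO 9 rose, with 0 down in either, all 22 being tested. The median log2 fold change was 0.89, 0.82, 0.48 and 0.60 in these comparisons. Among those that rose were the phosphatase gene Ptpn6 (3.29 and 3.00 after crush, 2.33 in Dgcr8 iKO), the kinase gene Syk (2.69 against contralateral nerves, 2.20 in Dicer iKO, 2.28 in Dgcr8 iKO) and the phospholipase gene Plcg2 (2.73 against uncrushed nerves, 1.92 in Dicer iKO), with the inositol phosphatase gene Inpp5d (1.80 in Dicer iKO). The gene that fell is Pik3r1, which encodes a PI3-kinase regulatory subunit, by -2.35 and -2.34 after crush.

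Among 10 transcription factors of the myeloid lineage, 8 rose against uncrushed nerves and 7 rose and 1, Maf, fell (-1.37) against contralateral nerves, where 9 were tested. In each mutant 6 rose and 0 fell, of 10 tested in Dicer iKO and 9 in Dgcr8 iKO. The median log2 fold changes were 2.11 and 2.30 after crush, 1.51 in Dicer iKO and 2.25 in Dgcr8 iKO. Cebpb rose by 2.81 and 2.95 after crush, Runx1 by 2.66 against uncrushed and Spi1 by 2.76 against contralateral nerves. Irf8 rose by 2.42 in Dicer iKO and 3.02 in Dgcr8 iKO, Cebpa by 3.06 in Dgcr8 iKO and Tfec, from a mean of 0.186 CPM, by 3.57 in Dicer iKO. Maf is also expressed outside the myeloid lineage.

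Of 13 genes that induce the colony-stimulating factors or carry their induction, 7 rose against uncrushed and 6 against contralateral nerves, and 4 rose in each mutant, with 0 down, 9 or 10 of them being tested. Their median log2 fold changes were 1.76, 1.499, 0.81 and 0.96. The AP-1 genes Fos (3.29 and 3.39) and Jun (2.95 against uncrushed nerves), the cytokine gene Il1b (2.86 against contralateral nerves, to a mean of 3.34 CPM) and the receptor gene Il17ra (2.73 and 2.84) led after crush. In the mutants Il17ra rose by 1.66 and 2.03 and the TNF receptor gene Tnfrsf1a by 1.28 and 1.51 in Dicer iKO and Dgcr8 iKO, while Tnf rose by 3.22 in Dicer iKO to a mean of 3.13 CPM and Jun by 1.54 in Dgcr8 iKO. Il17a was at 0 in all iKO libraries.

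Per length, as gene FPKM summed over all transcripts, the order of the members was read within each group. In uncrushed nerves Il34 was highest, at 18.4 ± 1.36 FPKM, then Csf1r at 7.36 ± 0.246, Csf1 at 5.59 ± 0.797 and Csf2ra at 5.54 ± 0.653, which did not differ beyond their spread, and Csf2rb at 1.07 ± 0.296 (SD, n = 3). In crushed nerves Csf1r led at 27.3 ± 5.81, followed by Csf2ra at 12.7 ± 1.10 and Il34 at 11.7 ± 1.74, which overlapped, then Csf2rb at 9.59 ± 0.463, within the range of Il34, and Csf1 at 6.95 ± 0.502 (n = 4). In Dgcr8 controls it ran from Il34 at 34.96 ± 3.45 over Csf1r at 18.4 ± 2.15, Csf1 at 6.55 ± 0.217 and Csf2ra at 4.70 ± 0.794 to Csf2rb at 1.66 ± 0.257. In Dicer controls Csf1r at 34.4 ± 17.3 and Il34 at 30.4 ± 6.37 overlapped, as did Csf1 at 7.64 ± 1.35 and Csf2ra at 5.66 ± 1.51, with Csf2rb at 2.12 ± 0.280 (n = 3 each). These control orders are those of the means. In Dgcr8 iKO the order was Csf1r at 57.6 ± 16.3, Il34 at 32.6 ± 3.18, Csf1 at 20.5 ± 0.930, Csf2ra at 15.8 ± 6.20 and Csf2rb at 7.15 ± 2.28, with Csf1 and Csf2ra overlapping. In Dicer iKO it was Csf1r at 78.3 ± 9.16, Il34 at 31.3 ± 4.36, Csf2ra at 16.5 ± 2.96 and Csf1 at 15.6 ± 2.19, which overlapped, and Csf2rb at 6.44 ± 2.18 (n = 3 each). In the crush files TPM lay below FPKM (Csf1 in uncrushed nerves a mean of 0.553 against 5.59), and the reason was not tested. The deposited FPKM were used, which give the same order within a library.

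Other marker lists moved as well, and their part in the levels of the members was not tested. Sox10 and other SC markers were detected in every group. SC markers fell in crushed nerves (6 of 8 against uncrushed, 7 of 8 against contralateral) and in Dgcr8 iKO (4 of 8), while none of the 8 was called in Dicer iKO, and their sum ranged over 36387 to 55444 CPM in the crush controls and 2108 to 3219 CPM in crushed nerves. Of 6 fibroblast markers, Col1a1 and Lum rose in Dicer iKO, where 2 others were lower without a call, and 4 rose in Dgcr8 iKO, while Col1a2 fell after crush against each control. T cell and innate lymphoid markers summed to at most 4.16 CPM in the iKO controls and to 21.7 to 46.4 CPM in the mutants, where all those tested rose (2 and 4 of 8), with Cd4 at a mean of 19.7 CPM in Dicer iKO and 14.9 CPM in Dgcr8 iKO. Against uncrushed nerves 1 of them, Il7r, rose and 2 fell. Mast cell markers rose in Dgcr8 iKO (4 of 5), and 3 of 5 fell in crushed against contralateral nerves. Of 5 endothelial markers, Cdh5 and Tek rose after crush, where Cldn5 and Kdr were lower without a call, and Cldn5 fell in Dgcr8 iKO. Of the skin markers Krt10 fell against contralateral nerves. Adipocyte, muscle and skin markers summed to at most 24.6, 14.8 and 3.92 CPM in any library.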

How the data were processed

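RNA sequencing of whole SN was analysed in 23 libraries of 7 groups. The authors trimmed reads (Trimmomatic), aligned them to GRCm38 with STAR and quantified transcripts with RSEM. The Ensembl release is not given in the sources used here. The deposited expected counts are RSEM's estimated counts per transcript, which were summed per gene and rounded. The deposited TPM and FPKM values, normalized by the authors per transcript, were summed per gene and used for levels only.

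Genes passing filterByExpr (minimum count 10) were compared with edgeR 4.0.16 (R 4.3.3; TMM, quasi-likelihood, Benjamini-Hochberg over all genes tested), each pair of groups in its own fit, and the line difference as an interaction over the iKO groups. Genes were called at an adjusted p of at most 0.05 and 2-fold, and the interaction at the adjusted p alone. DESeq2 1.42.0, RLE, no filter, a replicate block, all groups in one fit, edgeR's exact test, a summed Csf2rb pair and leaving out each library were alternatives, and FPKM for Csf1, protein-coding transcripts alone and the marker sum without Lyz2 were added after seeing the data. Scripts were tested on simulated data.

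The 7 members and the lists (relatives, signalling, myeloid transcription factors, inducers, and markers of macrophages, neutrophils, T and innate lymphoid cells, mast cells, SCs, fibroblasts, endothelium, adipocytes, muscle and skin) were chosen with earlier results of these data known. Named from each list were at most 3 called genes per comparison and direction, with the largest change among those with a mean of at least 1 CPM, all relatives, and the 5 genes most like Csf1 and Csf1r. Some genes that this rule names are not reported here. Replicate numbers in the labels were not used to pair the libraries in the main fits. Deviations of same-numbered libraries correlated at -0.174 to 0.177 over the comparisons, and at -0.094 to 0.177 for crushed against contralateral nerves. These few values cannot exclude pairing.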

Additional observations from a re-analysis of the deposited data

Results flagged for a closer look

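Within the 4 crushed libraries the level of Csf2rb in crushed 2, at 50.4 CPM, lay apart from the other 3, at 43.1 to 43.9 CPM, by more than Dixon's limit for 4 samples. Chance flags about 1 in 20 groups. All 4 libraries lay far above the 3.34 to 6.84 CPM of the crush controls.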

How the results depend on the processing

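Of 436 alternative values for 30 results, 409 kept their direction and their side of the threshold, 2 lost and 11 gained a call, and 14 changed sign, all of these for a member not called in that comparison. Between contralateral and uncrushed nerves, 0 genes were called, but 141 without the filter on low counts, 1 with all groups in one fit, 163 with edgeR's exact test and 0 to 95 when a library was left out, the most without uncrushed 2. In Dicer iKO 1175 genes were called, and 572 to 1411 when a library was left out, the fewest without Dicer iKO 3. The line difference was called for 2 genes, for 1 with RLE, 20 without the filter, 229 with DESeq2 and 0 to 401 when a library was left out, the most without Dicer control 3. With the replicate number as a block, whose pairing is not in the labels, the counts were 6, 640 and 0 in these 3 comparisons. The block changed no call of a member. Against uncrushed nerves 2673 genes rose and 3686 fell, against 3341 and 2720 with DESeq2 and 2337 and 4760 with all groups in one fit.

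Csf2ra against uncrushed nerves was 0.95 with all groups in one fit and 0.99 to 1.21 with a library left out. Against contralateral nerves it was 1.15 without the filter, 1.07 with DESeq2 and 0.92 to 1.06 with a library left out. Csf1r in Dicer iKO was called at 1.11 without the filter, with DESeq2 and with all groups in one fit and at 1.12 with the exact test, and ranged over 0.78 to 1.49 with a library left out. The line difference of Csf1 was called at 0.95 without the filter and 0.96 with DESeq2, and ranged over 0.84 to 1.002. It stayed uncalled in 14 of the 17 alternatives. Between contralateral and uncrushed nerves, Il34 was -0.0023 with protein-coding transcripts alone and -0.028 to 0.15 with a library left out, Csf2ra 0.025 without the filter, 0.066 with DESeq2 and -0.11 to 0.11, and Csf1r -0.37 to 0.0023. Il34 in Dicer iKO ranged over -0.20 to 0.10, and the line difference of Csf2ra over -0.19 to 0.34. The causes of these shifts were not tested. Depth limited Csf2 and Csf3, which could not be compared.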
